A study of Mus musculus with 12 samples.

Results

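The wild-type spinal cord at 1 week of age is described here from 6 of the 12 libraries of the series, those whose titles carry the genotype wt. Each library is the cord of 1 mouse on the mixed background B6J;CAST, in which the inbred strain C57BL/6J meets the wild-derived CAST. The labels give mice 1, 2 and 14 as female wt and mice 6, 9 and 19 as male wt, and no agent was applied. The other 6 libraries carry P278KY, an altered allele of the glycyl-tRNA synthetase gene Gars. These libraries enter only where the spread between mice is set beside theirs and in an alternative fit for labelled sex. The labels do not state the cord segments taken, the dissection, or the litters. Levels are TPM, a transcript's share of the library scaled to its length, which can be compared between genes. Differences between mice are also given in CPM, a count scaled to the normalized library total but not to length.

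In the first postnatal weeks the mouse cord myelinates its long tracts, its neurons exchange embryonic for mature receptor and channel subunits, and its neurons keep a Hox code that records their place along the body axis. Myelin in the cord is made by oligodendrocytes and in the nerve roots by Schwann cells. Cell bodies of sensory neurons lie outside the cord, in dorsal root ganglia, and vertebrae, muscle, fat and meninges surround it.

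Total expected counts ranged from 28701414 to 43219891 per wt library, and Pearson's r between wt libraries lay between 0.962 and 0.978 across genes, which are not independent replicates. In 2 of the 6 libraries the marks of sex contradicted the label. Xist, expressed from the silenced X of female cells, stood at 764, 879 and 858 CPM in mice 1, 2 and 19, and at 0.547, 0.550 and 0.475 CPM in mice 14, 6 and 9. Ddx3y, a gene of the Y chromosome, stood at 45.4, 89.3 and 86.3 CPM in mice 14, 6 and 9 and at 0.0294 CPM or less in mice 1, 2 and 19. The library labelled female wt 14 and the library labelled male wt 19 are therefore named by mouse number below, and counts over the 6 mice are also given without them. In mouse 14 the Y-linked Uty, at 10.9 CPM, was also below the 22.3 and 22.6 CPM of mice 6 and 9.

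The most abundant transcripts were those of the mitochondrial genome. Its 13 mRNAs, which encode subunits of the respiratory chain and ATP synthase, summed to 194870, 253750, 199450, 239620, 268220 and 254800 TPM in mice 1, 2, 14, 6, 9 and 19. They were lowest in mice 1 and 14, and on average made up 23.5% of all TPM. Mt-Co2 and mt-Co1, subunits of cytochrome c oxidase, averaged 29027 ± 2429 and 28132 ± 1385 TPM (SD, n = 6). The ATP synthase subunit mt-Atp8 ranked first by TPM at 52426 ± 18579 but was the least even of the 13, from 23955 TPM in mouse 1 to 71012 TPM in mouse 9. In CPM, which is not scaled to length, mt-Atp8 averaged 1144 against 22011 for mt-Co1. Its first rank therefore depends on scaling to the length of a short gene. The mt-Atp8 gene overlaps that of mt-Atp6, which averaged 22329 ± 2603 TPM, and counts of overlapping genes are uncertain. Likewise the nuclear pseudogene Gm10222 carried the same TPM as mt-Nd4l in every library, 10723 on average.

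Outside the mitochondrial genome, Mbp, the myelin basic protein, stood first at 10833 ± 2277 TPM. Its values were 12104, 8505, 11775, 7427, 12264 and 12921 TPM in mice 1, 2, 14, 6, 9 and 19, so that mice 2 and 6 lay below the other 4. Apoe, the lipid carrier of astrocytes, followed among protein-coding genes at 4293 ± 404 TPM, and its range of 3694 to 4753 TPM was narrow beside that of Mbp. The hemoglobin chains Hba-a2 and Hbb-bs averaged 3969 ± 1995 and 3460 ± 2173 TPM. Tuba1a, the alpha-tubulin of growing neurons, averaged 3012 ± 287 TPM, and Eef1a1, a translation elongation factor, 2906 ± 181 TPM. The maternally expressed noncoding RNAs Meg3 and Rian reached 2691 ± 243 and 1852 ± 180 TPM. Tmsb10, which binds actin monomers, stood at 2390 ± 227 TPM, and Dbi, a binding protein for acyl-CoA, at 1794 ± 147 TPM. Cst3, a secreted protease inhibitor, stood apart in 1 mouse, with 3329 TPM in mouse 1 and 1488 to 1864 TPM in the other 5.

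**Figure D1:**
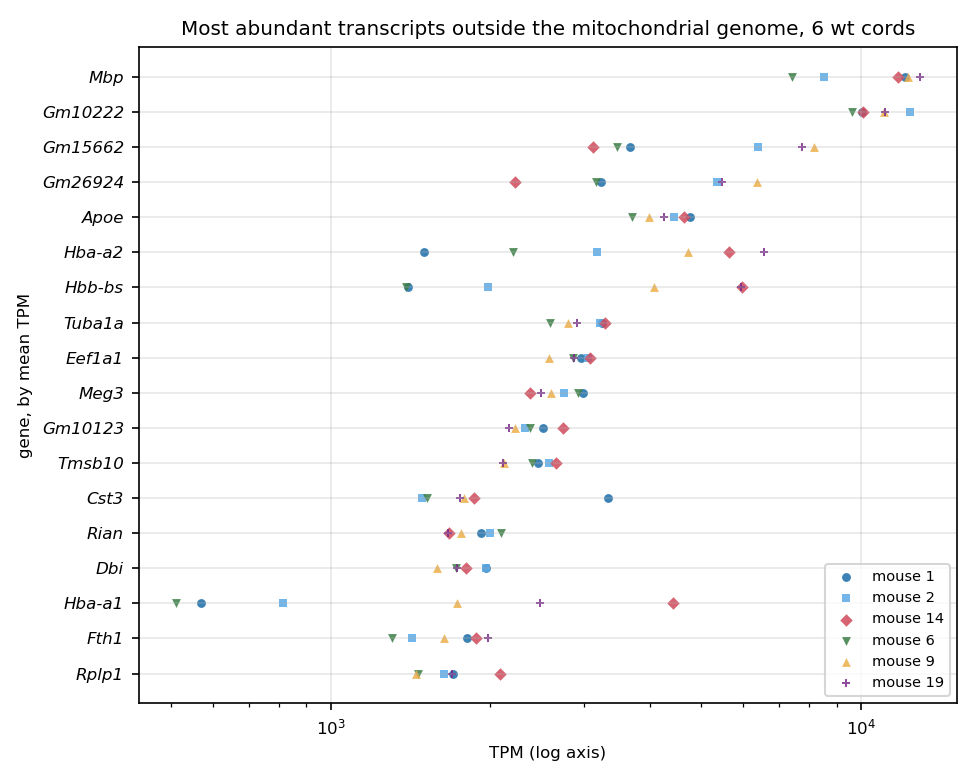
TPM on a log axis of 18 of the 20 most abundant genes outside the mitochondrial genome, ordered by mean, with 1 point per wt mouse. Most genes form tight clusters, while Hba-a2, Hbb-bs and Hba-a1 spread widely, with Hba-a1 at 510.4 TPM in mouse 6 and 4420 TPM in mouse 14.

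The transcript pool was concentrated in few genes. The 10 most abundant genes held 21.6 ± 2.75% of all TPM, the first 100 held 38.7 ± 3.15% and the first 1000 held 62.9 ± 1.99% (SD, n = 6). With mitochondrial genes removed and the rest rescaled, the shares were 7.18 ± 1.24%, 20.2 ± 1.41% and 51.1 ± 1.13%. A mean level of at least 1 TPM was reached by 16426 of 38924 genes, and 14756 reached it in every library. A mean of at least 100 TPM was reached by 1398 genes and of at least 1000 TPM by 64. The 91 genes of cytosolic ribosomal proteins summed to 42679 ± 4012 TPM, led by Rplp1 of the large subunit stalk at 1672 ± 231 TPM.

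Marker lists were set beside the tissue label. All 12 neuronal, 12 astrocytic, 13 myelinating oligodendrocyte, 11 microglial and 10 endothelial markers reached 1 TPM in every library. So did all 7 red cell, 8 marrow and neutrophil and 8 meningeal and fibroblast markers, 6 of 8 for cartilage and bone and 5 of 10 for skeletal muscle. Over all genes, 14756 of 38924 did, so reaching this level does not tell cord from attached tissue. Myelin markers had the largest sum of the cord's own lists, at 20062, 14234, 19337, 13346, 21687 and 22251 TPM in mice 1, 2, 14, 6, 9 and 19. As for Mbp alone, mice 2 and 6 were lowest. In bulk tissue, fewer cells of a type and less RNA per cell cannot be told apart, and sums of lists of unequal length do not rank cell numbers.

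Oligodendrocyte lineage markers differed in how evenly they were expressed. Precursor markers summed to between 470 and 515 TPM, an SD over mean (coefficient of variation, CV) of 3.77%, the smallest of the 28 lists. Beside 9.25% over all genes tested for spread, the single precursor markers had a median CV, in CPM, of 9.17%. Among them Olig1, a lineage transcription factor, averaged 212 ± 18.7 TPM, Ptprz1, a receptor phosphatase, 113 ± 11.4 TPM, and Pdgfra, the receptor for the precursors' growth factor, 53.8 ± 2.02 TPM. Premyelinating markers summed to between 656 and 907 TPM, with the kinase Fyn at 280 ± 27.9 TPM, Bcas1 at 271 ± 41.3 TPM, the receptor Gpr17 at 141 ± 20.9 TPM and Enpp6 at 59.1 ± 13.3 TPM. Myelinating markers had a CV of 20.5%, with Mobp at 1154 ± 293 TPM and Cnp, the myelin phosphodiesterase, at 887 ± 132 TPM. Opalin, a late marker of the lineage, did not share the order of the other myelin genes. It stood at 13.7, 2.66, 4.23, 4.33, 7.59 and 1.75 TPM in mice 1, 2, 14, 6, 9 and 19, so that mouse 19, highest for Mbp, was lowest for Opalin.

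Astrocyte markers summed to 5284 ± 367 TPM and neuronal markers to 4601 ± 424 TPM. Sparcl1, a secreted synapse-promoting protein, led the astrocyte list at 1481 ± 133 TPM, followed by the filament protein Gfap, the aldolase Aldoc at 707 ± 62.8 TPM and the water channel Aqp4 at 493.4 ± 55.1 TPM. Gfap was the least even of the 12, from 639 TPM in mouse 6 to 1157 TPM in mouse 19. In neurons the neurofilament subunits Nefm and Nefl led at 1034 ± 145 and 774 ± 94.4 TPM, followed by Stmn2, a protein of growing axons, at 592 ± 61.8 TPM and Tubb3, the neuronal beta-tubulin, at 513 ± 68.2 TPM. The neuronal sum was between 4463 and 4897 TPM in 5 mice and 3801 TPM in mouse 19.

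Inhibitory markers summed to 635, 537, 437, 570, 469 and 440 TPM in mice 1, 2, 14, 6, 9 and 19, and excitatory markers to 304, 265, 285, 308, 239 and 218 TPM. Mice 1, 2 and 6 had the 3 highest inhibitory sums. Gad1, which makes GABA, averaged 87.6 ± 13.6 TPM, Slc32a1, which loads GABA and glycine into vesicles, 75.1 ± 13.5 TPM, and Slc6a5, the neuronal glycine transporter, 68.9 ± 14.1 TPM. Among excitatory markers, Tac1, the substance P precursor, averaged 89.4 ± 11.4 TPM and Slc17a6, the vesicular glutamate transporter of spinal neurons, 89.2 ± 16.6 TPM. Slc17a7, another vesicular glutamate transporter, reached 9.71 TPM in mouse 14 and 0.40 to 1.55 TPM in the other 5.

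The motor neuron list was led by a gene that sensory neurons also express. Prph, the filament protein peripherin, stood at 59.0, 70.4, 217, 67.7, 82.8 and 48.9 TPM in mice 1, 2, 14, 6, 9 and 19, and Isl2, a transcription factor of motor and sensory neurons, at 1.53, 1.77, 18.5, 1.94, 2.69 and 2.02 TPM. Both were highest in mouse 14. By contrast, the cholinergic genes Slc5a7, the choline transporter, and Chat, which makes acetylcholine, were highest in mouse 9, at 34.3 and 10.5 TPM, beside 28.6 and 9.70 TPM in mouse 14. Chodl, a marker of fast motor neurons, ranged from 31.03 to 48.6 TPM. The 8 dorsal root ganglion markers summed to 152 TPM in mouse 14 and to 3.18, 4.32, 2.89, 4.07 and 6.0 TPM in mice 1, 2, 6, 9 and 19, and their part in the Prph and Isl2 values was not tested.

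Vascular and immune markers of the cord had low sums, with CVs of 7.35% for endothelium, 9.14% for pericytes and smooth muscle and 14.2% for microglia. Single members above the level filter had median CVs, in CPM, of 9.56%, 17.9% and 19.4%, beside 9.25% over all genes tested. Endothelial markers summed to 266 ± 19.5 TPM, led by the tight junction gene Cldn5 at 79.8 ± 8.26 TPM and by the glucose transporter Slc2a1 at 47.2 ± 2.31 TPM. Pericyte and smooth muscle markers summed to 243 ± 22.2 TPM, led by Rgs5 at 126 ± 20.6 TPM, and the smooth muscle actin Acta2 ranged from 9.24 TPM in mouse 1 to 31.5 TPM in mouse 14. Microglial markers summed to 230 ± 32.7 TPM, and Csf1r, the receptor on which microglia depend, averaged 25.9 ± 4.49 TPM. Tmem119, a microglial surface protein that bone-forming cells also express, was the least even, at 15.4 TPM in mouse 14 and 5.16 to 8.58 TPM in the other 5. The 10 cell cycle markers all reached 1 TPM in every library and summed to 133 ± 20.8 TPM, with the kinase Cdk1 at 27.2 ± 6.23 TPM and Top2a at 27.1 ± 3.71 TPM. Ependymal markers, of the cells that line the central canal, summed to 52.2 ± 14.6 TPM, led by Rsph1 of the motile cilium at 14.3 ± 5.44 TPM.

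**Figure D2:**
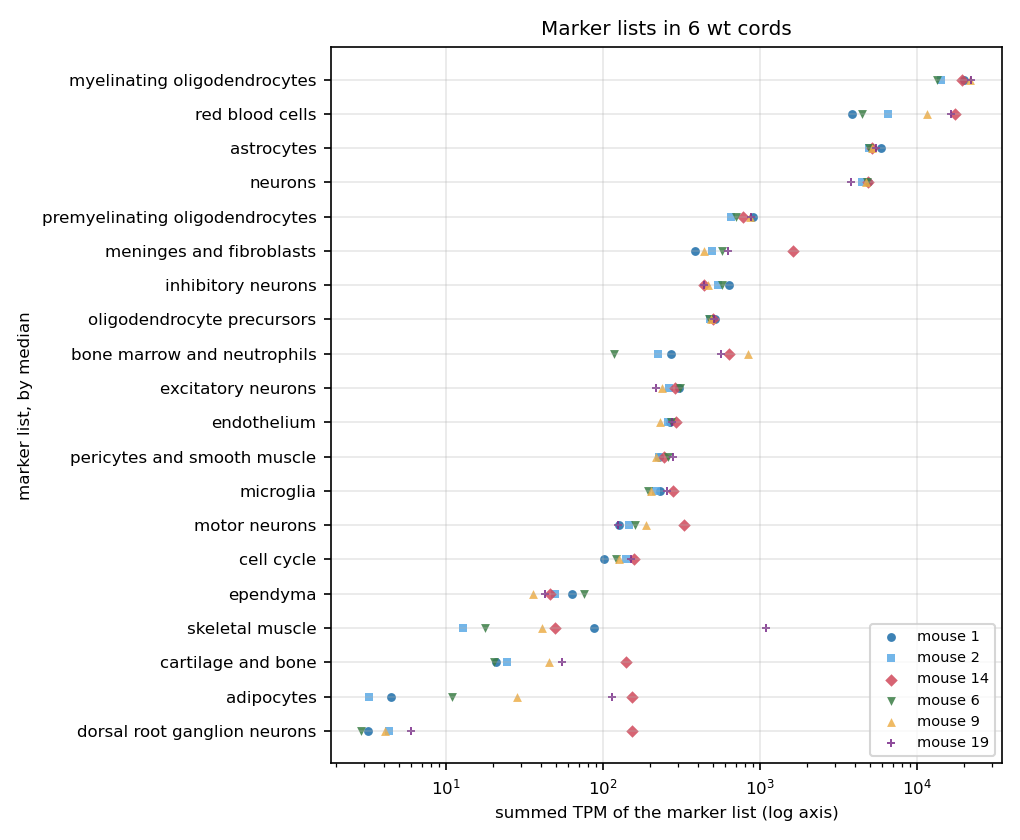
Summed TPM on a log axis of 20 marker lists, ordered by median, with 1 point per wt mouse. Neuron, astrocyte, oligodendrocyte precursor and endothelial lists cluster, whereas motor neuron markers reach 327 TPM in mouse 14 against 124 to 188 TPM in the other 5, skeletal muscle reaches 1089 TPM in mouse 19 and dorsal root ganglion neurons reach 152 TPM in mouse 14.

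Tissues that adjoin the cord varied most between mice. Of the Schwann cell markers, Pmp22, a membrane protein of peripheral myelin, stood at 559, 611, 573, 602, 70.7 and 191 TPM in mice 1, 2, 14, 6, 9 and 19. Mice 9 and 19 were low. Prx, the periaxin gene of myelinating Schwann cells, stood at 76.3, 79.2, 71.02, 89.1, 6.05 and 20.8 TPM, and Pmp2, a lipid-binding protein of peripheral myelin, at 55.6, 61.2, 69.9, 80.8, 7.11 and 22.03 TPM, with the same 2 mice low. Central myelin did not share this order: mice 9 and 19 had the 2 highest sums of oligodendrocyte markers.

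Skeletal muscle markers summed to 87.7, 12.9, 49.7, 17.6, 40.8 and 1089 TPM in mice 1, 2, 14, 6, 9 and 19, so that mouse 19 lay apart. Acta1, the actin of muscle fibres, reached 385 TPM there and 3.67 to 25.1 TPM elsewhere, and Mylpf, a fast myosin light chain, 262 TPM and 1.87 to 27.0 TPM. Fabp4, a fatty acid carrier of fat cells, stood at 3.88, 2.55, 110, 8.33, 23.0 and 87.3 TPM and Ucp1, the uncoupling protein of brown fat, at 0.14, 0.10, 30.9, 1.28, 2.54 and 20.01 TPM. Both were highest in mice 14 and 19. Fibroblast and meningeal markers reached 1632 TPM in mouse 14 and 383 to 627 TPM in the other 5, with the collagen genes Col1a1 at 565 TPM and Col1a2 at 516 TPM in mouse 14. Cartilage and bone markers stood at 140 TPM in mouse 14 and at 20.2 to 54.6 TPM in the other 5, and Bglap, the osteocalcin gene, ranged from 2.46 TPM in mouse 2 to 70.1 TPM in mouse 14.

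Blood markers also differed. Red cell markers summed to 3839, 6570, 17510, 4488, 11537 and 16509 TPM in mice 1, 2, 14, 6, 9 and 19, highest in mice 14 and 19 and lowest in mice 1 and 6. The marrow and neutrophil list had another leader, at 271, 225, 634, 118, 833 and 562 TPM, highest in mouse 9. S100a8 and S100a9, which form the calcium-binding dimer of neutrophils, supplied most of it, with S100a8 between 56.1 TPM in mouse 6 and 383 TPM in mouse 9. Hba-a2 and Hbb-bs ranked among the 30 most abundant genes although they belong to blood.

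The Hox genes gave a position code of the tissue in each library. Their 38 genes, numbered from rostral to caudal, summed to 840 ± 103 TPM, and 28 of them reached 1 TPM in all 6 libraries. Paralogs 1 to 9 summed to 742, 653, 766, 699, 660 and 664 TPM in mice 1, 2, 14, 6, 9 and 19, and the sum by paralog number was highest at number 8 in every mouse, 224 ± 21.4 TPM. Hoxb8 was the most abundant single gene at 158 ± 24.2 TPM. Paralogs 10 to 13 summed to 213, 274, 32.8, 208, 66.2 and 63.4 TPM, high in mice 1, 2 and 6 and low in mice 14, 9 and 19. Hoxc10 stood at 64.3, 65.0, 12.8, 53.8, 24.1 and 26.9 TPM, and Hoxd11 at 23.3, 38.4, 1.5, 21.4, 4.13 and 1.64 TPM.

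The most caudal genes were near or at 0 in the same 3 libraries. Hoxc12 stood at 18.9, 38.7, 0, 22.8, 0.07 and 0.09 TPM and Hoxc13 at 6.20, 12.2, 0, 8.96, 0.03 and 0 TPM in mice 1, 2, 14, 6, 9 and 19. With a count of 0 the depth allows up to 3 counts, which is 0.0948 CPM in mouse 14 and 0.0699 CPM in mouse 19, a limit that covers counting error only. At the other end Hoxc5 was highest in mice 14 and 19, at 12 and 6.18 TPM, against 1.40 to 2.45 TPM in the other 4. Hoxc8 stood at 24.4, 19.5, 54.5, 26.3, 61.8 and 44.1 TPM, high in mice 14, 9 and 19, while Hoxc9 was even, from 8.79 to 10.5 TPM. Schwann cell genes and the muscle, fat and blood markers, given above, also differed between these mice, and their part in the Hox values was not tested.

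**Figure D3:**
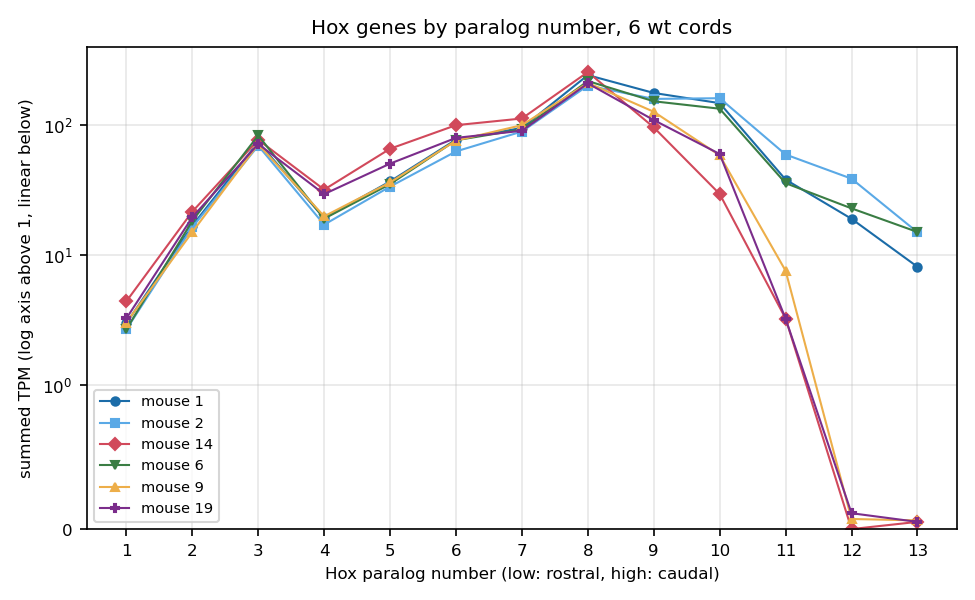
Summed TPM of Hox genes by paralog number, from rostral to caudal, with 1 line per wt mouse, on an axis that is logarithmic above 1 and linear below. The lines run closest at 3, 7 and 8. At 4 and 5 mice 14 and 19 lie above the rest, with paralog 5 at 65.8 and 50.6 TPM against 33.6 to 36.9 TPM. From 10 on the lines part widely, and paralog 12 sums to 19 TPM or more in mice 1, 2 and 6 and to 0.11 TPM or less in mice 14, 9 and 19.

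Levels were set side by side in pairs of genes, 12 tested and 11 reported. Each pair was compared within the mouse on the log2(TPM + 0.1) scale with an exact two-sided sign-flip permutation test over 6 mice. All mice were of the same age and the genes of a pair differ, so their order does not measure developmental state. In each of these 11 pairs the same gene was higher in 6 of 6 mice. The exact p was 0.03125 for each pair, the smallest that 6 mice allow, and 0.03125 after Benjamini-Hochberg adjustment over 12 pairs. The p values therefore rank no pair above another, and folds are given for size. The pairs were chosen with earlier results of these data known, so these p values give the order no independent support. With any mouse left out no pair could pass, since 5 mice reach 0.0625 at best.

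In 8 of the 10 reported pairs that set an earlier against a later gene of development or of a lineage, the later gene was higher per length. The potassium-chloride exporter Slc12a5, which lowers chloride in mature neurons, stood 3.48-fold above the importer Slc12a2, at 177 ± 25.3 against 50.49 ± 4.85 TPM. The adult glycine receptor subunit Glra1, at 46.6 ± 10.02 TPM, stood 1.46-fold above the fetal subunit Glra2, at 31.9 ± 6.58 TPM. The sodium channel Scn8a of mature nodes stood 1.87-fold above Scn3a, the neuronal nuclear protein Rbfox3 3.89-fold above Dcx of young neurons, and the neurofilament Nefh 1.38-fold above Ina. In glia, Gfap stood 4.24-fold above Vim, the glutamate transporter Slc1a2 1.91-fold above Slc1a3, and Mbp 197-fold above Pdgfra.

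In the other 2 the earlier gene was higher. The glutamate receptor subunit Grin2b stood at 18.7, 15.4, 11.3, 15.5, 13.1 and 12.8 TPM in mice 1, 2, 14, 6, 9 and 19 and Grin2a at 6.62, 3.0, 2.77, 6.53, 6.85 and 2.27 TPM, a fold of 3.32. The Grin2b values did not overlap those of Grin2a. The beta-tubulin Tubb2b stood 1.73-fold above Tubb4a of myelinating cells, at 894 ± 122 against 519 ± 84.3 TPM. In the last pair, which sets both inhibitory transmitters side by side, Gad1 stood 1.28-fold above Slc6a5. This was the most uniform of the 11, with a log2 difference of 0.36 ± 0.09 (SD, n = 6).

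Imprinted genes of growth control were dominated by Meg3. Their sum was even, at 3688 ± 159 TPM, but 2 of the 10 members were not. H19, a maternally expressed noncoding RNA, stood at 56.0, 89.8, 331, 91.2, 123 and 439 TPM in mice 1, 2, 14, 6, 9 and 19, and Igf2, the growth factor gene beside it, at 117, 180, 465, 171, 170 and 344 TPM. Both were highest in mice 14 and 19. Ndn averaged 283 ± 32.9 TPM with a range of 244 to 341 TPM. Immediate early genes, which respond to activity and handling, summed to between 69.3 and 94.96 TPM, led by Jun at 31.8 ± 3.99 TPM.

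The spread of single genes was measured as the CV of CPM over the 6 mice in 13617 genes with a mean of at least 1 TPM and 100 counts. The median CV was 9.25%, with quartiles of 6.28% and 14.003%. A CV above 50% was found in 368 genes, 2.7% of those tested, and a CV below 5% in 1886, 13.9% of those tested. Without mice 14 and 19 the counts were 204 and 3030. Just inside and outside the upper threshold lay Sostdc1 at 50.01% and Slc6a13 at 49.9%. The highest of the 6 mice was mouse 14 for 159 of the 368 genes, mouse 19 for 83, mouse 9 for 54, mouse 6 for 30, mouse 1 for 29 and mouse 2 for 13.

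Among the 30 named genes of highest CV stood 6 of the 8 skeletal muscle and 5 of the 5 dorsal root ganglion markers above the level filter. The filter acts on the mean over 6 mice. A gene such as Scn10a, at 27.8 TPM in mouse 14 and 0.64 TPM or less in the other 5, passed it only through that mouse. Its high CV was thereby fixed, so these counts are no test of the lists. Myh1, a fast myosin heavy chain, had a CV of 231%, with 3.97, 0.61, 1.52, 0.51, 1.76 and 163 CPM in mice 1, 2, 14, 6, 9 and 19. Myh2 and Myh8, also myosins, Atp2a1, the muscle calcium pump, Ckm, muscle creatine kinase, and Ttn, the giant sarcomere protein, were likewise highest in mouse 19, with CVs of 204% to 227%. Scn10a, a sodium channel of pain-sensing neurons, had a CV of 228%, with 97.6 CPM in mouse 14 and 0.43 to 2.42 CPM in the other 5. Scn11a, Avil, Tmem233, P2rx3 and Pirt shared that library as their highest. Each of these 5 reached at least 23.2 CPM there.

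Other genes among the 30 had patterns of their own. Myh4, another fast myosin, stood at 17.6 CPM in mouse 1, 3.17 CPM in mouse 19 and 0.13 CPM or less in the other 4. Apoa4, an apolipoprotein of the gut, stood at 0, 4.67, 7.29, 0.04, 0.05 and 34.6 CPM in mice 1, 2, 14, 6, 9 and 19, highest in mouse 19. Tuba1c, an alpha-tubulin, stood at 155 CPM in mouse 6 and at 6.28 to 12.5 CPM in the other 5, and is taken up with its near-identical copies below.

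**Figure D4:**
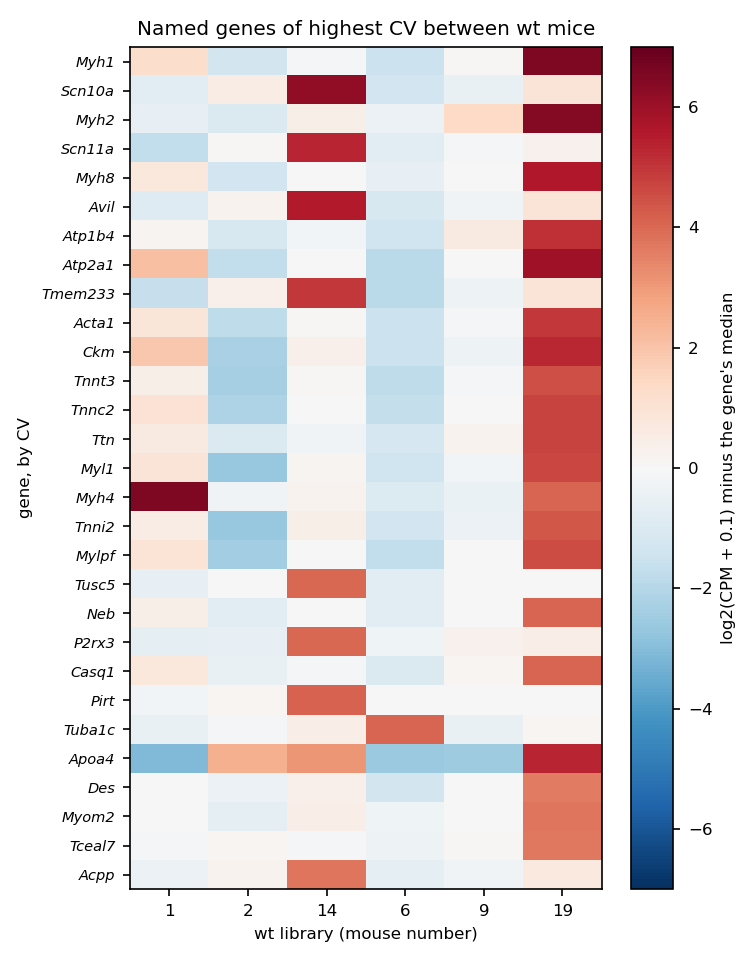
Heatmap of 29 of the 30 named genes of highest CV, in columns by wt mouse number, coloured by log2(CPM + 0.1) minus the gene's median over the 6 mice. Myh1, Myh2 and Acta1 are darkest in mouse 19, Scn10a, Scn11a and Avil are darkest in mouse 14, and Myh4 and Tuba1c are highest in mice 1 and 6.

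By marker list, members with a CV above 50% among those above the level filter are counted here beside the 2.7% of all genes tested. They numbered 7 of 9 for Schwann cells, 7 of 7 for red cells and 5 of 8 for meninges and fibroblasts, where every member was above the filter. They numbered 8 of 10 for skeletal muscle, of which 8 were above the filter, 6 of 8 for marrow and neutrophils, of which 7 were, and 5 of 8 for dorsal root ganglion neurons, of which 5 were. The count was 0 of 12 for neurons, 0 of 12 for astrocytes, 0 of 6 for precursors and 0 of 10 for endothelium, and 1 of 13 for myelinating oligodendrocytes, which is Opalin. Of members above the filter, it was 3 of 7 for motor neurons, 2 of 8 for pericytes and smooth muscle and 1 of 9 for excitatory neurons. It was 0 of 8 for inhibitory neurons, 0 of 10 for microglia, 0 of 7 for premyelinating oligodendrocytes and 0 of 3 for ependyma. A member passes the level filter on its mean over the 6 mice, so a gene that is high in 1 mouse can pass through that mouse and then had to differ. Of the 38 Hox genes, 30 were above the filter and 9 had a CV above 50%.

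The gene of lowest CV was Pa2g4. This growth-regulated RNA-binding protein stood at 81.6, 81.4, 82.5, 82.4, 82.2 and 83.4 CPM in mice 1, 2, 14, 6, 9 and 19, a CV of 0.84% where counting alone would give 1.87%. Ykt6, a membrane fusion protein, averaged 97.3 CPM with a CV of 1.27%, Rheb, a small GTPase upstream of mTOR, 78.1 CPM with 1.70%, Actr3, which nucleates branched actin, 153 CPM with 1.77%, and Gdi2, which recycles Rab proteins, 263 CPM with 1.83%. Larp1, a binding protein of ribosomal protein mRNAs, had 1.80% and Mtch1, of the outer mitochondrial membrane, 1.83%. Counting alone would give 1.72% for Ykt6 and 1.92% for Rheb, which are above their CVs. It would give 1.37% for Actr3, 1.05% for Gdi2, 1.19% for Larp1 and 1.12% for Mtch1, which are below theirs. The median level of genes under 5% was 37.9 TPM, against 21.5 TPM over all genes tested and 10.2 TPM over genes above 50%.

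Reference genes of expression studies ranged from a CV of 3.37% for Ywhaz, a 14-3-3 adaptor, to 65.0% for Gapdh, the glycolytic enzyme. Actb, the cytoplasmic beta-actin, had 5.89% and Rpl13a, a ribosomal protein, 6.82%. Gapdh stood at 1281, 442, 436, 366, 391 and 393 CPM in mice 1, 2, 14, 6, 9 and 19, so that mouse 1 alone was high. The processed pseudogene Gm12033 gave the reverse, with 0 CPM in mouse 1 and 442, 441, 421, 450 and 466.4 CPM in the others. Summed over Gapdh and 77 near-identical pseudogenes, the values were 1528, 1410, 1398, 1309, 1389 and 1415 CPM, a CV of 5.01%.

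**Figure D5:**
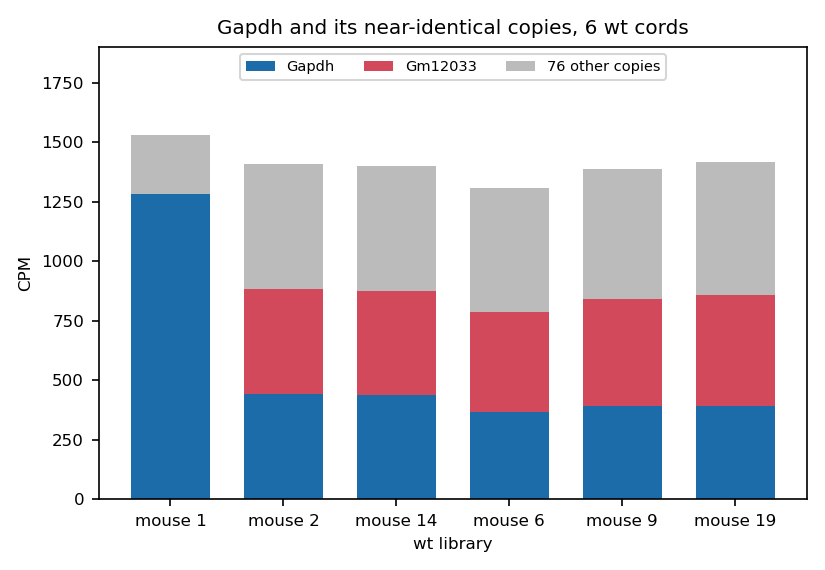
CPM of Gapdh, of its pseudogene Gm12033 and of 76 other near-identical copies, stacked by wt mouse. Bar heights run from 1309 to 1528 CPM, while the Gapdh segment is 1281 CPM in mouse 1 and 366 to 442 CPM elsewhere.

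How close such copies are to their gene is shown by 75-base coding stretches of 3 pairs, taken from GENCODE transcripts on GRCm38 and printed 5′ to 3′. The authors' build is not given, so places are those of GRCm38, and capitals mark a mismatch to the gene. Gapdh lies at chr6:125163362-125163436 on the minus strand, in exon 3, and Gm12033, a single-exon processed pseudogene, at chr11:20335916-20335990 on the minus strand. Rplp0, of the ribosomal stalk, lies at chr5:115560787-115560861 on the plus strand, in exon 3, and its copy Gm8730 at chr8:102865624-102865698 on the minus strand. Tuba1b lies at chr15:98933024-98933098 on the minus strand, in exon 2, and its copy Gm14150 at chr2:151459056-151459130 on the plus strand. The first and the last of these 3 pairs have 0 mismatches over 75 bases, and the second has 1.
Gapdh: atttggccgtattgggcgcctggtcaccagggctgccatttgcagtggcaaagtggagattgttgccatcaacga
Gm12033: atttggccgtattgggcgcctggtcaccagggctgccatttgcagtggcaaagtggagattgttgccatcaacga
Rplp0: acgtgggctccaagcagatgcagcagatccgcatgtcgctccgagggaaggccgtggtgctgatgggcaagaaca
Gm8730: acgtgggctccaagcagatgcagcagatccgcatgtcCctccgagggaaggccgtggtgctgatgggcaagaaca
Tuba1b: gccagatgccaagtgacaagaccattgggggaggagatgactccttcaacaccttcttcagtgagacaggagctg
Gm14150: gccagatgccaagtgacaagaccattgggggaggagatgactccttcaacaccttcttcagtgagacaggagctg

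Many pseudogenes above the level filter were uneven between mice. Of 219 tested, 86 had a CV above 50%, which is 39.3% of them, and 1 had a CV below 5%. Protein-coding genes gave 258 of 12945, or 1.99%. The filter acts on the mean over mice, so some passed only through mice where they were high, which fixed their CV. Rpl34-ps1, at 171.5 TPM in mouse 9 and 0 TPM elsewhere, is 1 of these. The shares are therefore no test of pseudogenes as a class. Of the 86 pseudogenes, 82 matched a tested protein-coding gene at 95% identity or more over at least 80% of their length, 28 of the matches being to ribosomal protein genes. The median CV of the 82 was 82.1%, that of their matched genes 13.3% and that of the sums over copies 7.01%. The 82 were chosen for a CV above 50%, so their median had to be high. Where the gene far exceeds its copies, as for Eef1a1 at 2673 CPM in a sum of 2708 CPM, the sum follows the gene. The fall from 82.1% to 7.01% is therefore no test of counts moving between copies. Of the sums, 3 stayed above 50%. Levels of these genes and their copies are uncertain, since expected counts divide fragments that fit several genes.

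Single families differed in what their sums showed. Gm8730 stood at 0.05, 0.13, 0.17, 52.6, 55.1 and 64.2 CPM and Rplp0 at 372, 403, 435, 272, 275 and 328 CPM in mice 1, 2, 14, 6, 9 and 19. The copy was high in mice 6, 9 and 19, where Rplp0 was lower, and the sum of Rplp0 with 3 near-identical copies had a CV of 10.4%, beside 19.4% for Rplp0 alone. Gm14150 stood at 214 CPM in mouse 6 and at 0.65 to 1.19 CPM in the other 5. In the same mouse Tuba1c was high and Tuba1a was lowest, at 2088 CPM against 2493 to 2758 CPM in the other 5. Summing over near-identical copies did not even out the alpha-tubulins. The CV of Tuba1c went from 180% alone to 212% with 5 copies, at 387 CPM in mouse 6 and 7.02 to 13.7 CPM in the other 5, and that of Tuba1b from 4.99% alone to 12.2% with 5 copies. In a wider sum over Tuba1a, Tuba1b, Tuba1c and Gm14150, chosen after their values were seen and made up mostly of Tuba1a, the values were 3470, 3609, 3557, 3290, 3295 and 3342 CPM, a CV of 4.03%.

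The spread of a gene between wt mice resembled its spread in the other 6 libraries of the series. Over 13322 genes tested in both, Spearman's rho of the CV was 0.715, given as a description since the points share tissue, method and mean level. Of these genes, 301 exceeded 50% in wt and 227 in the others. The 187 that exceeded it in both were 62.1% of the former and 82.4% of the latter. Median CVs over the same genes were 9.12% in wt and 8.11% in the others.

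The labels also split the 6 mice by sex, and edgeR's quasi-likelihood test with Benjamini-Hochberg adjustment was run on that split as labelled. Of 17586 genes tested, 7 passed, which is 0.0398%, all lower in the mice labelled female, and 0 (0%) were higher. At an unadjusted p under 0.05 there were 1262 in either direction. The gene with the smallest p was the Rplp0 copy Gm8730, and 5 of the 6 called genes of smallest p are predicted genes or pseudogenes, named by number or by Vdac3-ps1. The sixth was Atp7b, a copper transporter, at 12.8, 13.5 and 12.7 CPM in mice 1, 2 and 14 and 22.1, 24.7 and 23.8 CPM in mice 6, 9 and 19. The log2 difference of Atp7b, labelled female minus labelled male, was -0.86 ± 0.08 (SE), with an edgeR adjusted p of 0.03297. Each labelled group holds a mouse whose sex marks contradict the label, mice 14 and 19. Genes called on this split can therefore not be read as sex effects. Higher in the mice labelled female without passing were Tom1, an endosomal adaptor, by a log2 difference of 0.69 ± 0.09 (SE, edgeR adjusted p of 0.1194), and Pcsk1n, a neuroendocrine convertase inhibitor, by 0.51 ± 0.07 (edgeR adjusted p of 0.1217). Tom1 has a near-identical pseudogene, Gm5884. The CV over the 6 mice was 26.8% for Tom1 alone and 9.10% for the sum of both, so the level of Tom1 is uncertain. Xist and Ddx3y did not pass, with edgeR adjusted p of 0.9648 and 0.9008. DESeq2 called 92 genes on the same split, 23 higher and 69 lower, and limma-trend 10, 4 higher and 6 lower. Without mice 14 and 19 edgeR called 109, 24 higher and 85 lower, without mouse 14 alone 42, without mouse 19 alone 39, and without mouse 1, 6 or 9 it called 3.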

How the data were processed

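RNA of the spinal cord of 6 wt mice was analysed, 1 library per mouse. Poly(A) RNA was sequenced as paired-end reads from stranded kits, per the labels' protocols. The submitters' processing notes name Bowtie2 2.2.0 and RSEM 1.2.12 without their roles. Build, annotation and strand setting were not given in the sources used here, so antisense partners may share counts. Per the file headers, the deposited files hold an expected count (an estimated count of fragments that divides those fitting several genes) and a TPM value, which the authors scaled to transcript length and library total, for 38924 genes. FPKM was not used.

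Expected counts were rounded and TMM-scaled, and labelled sex was tested with edgeR 4.0.16 (filterByExpr, quasi-likelihood, Benjamini-Hochberg at 0.05). The common biological CV was 23.2%. DESeq2 1.42.0 and limma-trend (limma 3.58.1) were alternatives, as were other scalings, filters and pseudocounts, and each mouse left out. The CV used CPM over genes with a mean of at least 1 TPM and 100 counts. Standard errors of edgeR differences were derived from each difference and its F statistic. Pearson's r between libraries used log2(CPM + 1) over the same genes. Copies were found with BLAST 2.17.0. Biotypes and places come from GENCODE M21 on GRCm38, which matched 37607 genes. Scripts were tested on simulated data.

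Of 367 symbols in 28 lists, 365 were found. The members, lists and pairs were chosen with earlier results of these data known. Named were the 30 most abundant genes, the 20 most abundant outside the mitochondrial genome, the 30 of highest and of lowest CV (predicted genes passed over), up to 4 most abundant members of a list and its member of highest CV, all pairs, Hox genes and the 6 smallest p for sex in each direction. Other names, such as Uty, the sex marks, the copies and the genes at the CV threshold, were chosen after their values were seen. Some items are not reported here. Replicates are separate mice.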

Additional observations from a re-analysis of the deposited data

Results flagged for a closer look

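In 7 of 66 sums examined, 1 mouse lay far from the other 5. Its gap, as a share of the whole range, exceeded Dixon's 95% critical value of 0.625 for 6 samples. The nominal rate is about 1 in 20. The lists were chosen with earlier results of these data known, and all sums come from the same mice. The count of 7 is therefore a description and no test against that rate. Mouse 14 was the far one in 6 of the 7 sums. Its gap was 0.979 of the range for dorsal root ganglion neuron markers (152 TPM, next 6.0 TPM), 0.805 for meninges and fibroblasts (1632 TPM, next 627 TPM) and 0.713 for cartilage and bone (140 TPM, next 54.6 TPM). It was 0.684 for motor neuron markers (327 TPM, next 188 TPM), 0.77 for immediate early genes (94.96 TPM, next 75.2 TPM) and 0.665 for Hox paralog 1 (4.40 TPM, next 3.25 TPM). Mouse 19 was the far one for skeletal muscle markers, with a gap of 0.931 (1089 TPM, next 87.7 TPM). The same measure exceeded the critical value in 935 of 13617 single genes, 6.87%.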

How the results depend on the processing

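For labelled sex, the 7 genes called became 92 with DESeq2, 2 in a fit of all 12 libraries with 1 mean per group and 109 without mice 14 and 19, and between 3 and 42 with 1 mouse left out. RLE factors, library totals, no filter, a CPM filter and limma-trend gave 6 to 10. Genes with a CV above 50% numbered 204 without mice 14 and 19 and between 283 and 395 with 1 mouse left out. Genes with a CV below 5% numbered 525 on TPM as deposited, 3030 without mice 14 and 19 and between 1995 and 2453 with 1 mouse left out. Of the gene pairs, 0 could pass without mice 14 and 19, where the smallest possible p is 0.125, and 0 to 0 with 1 mouse left out, where it is 0.0625, and their direction held under each alternative run. With mitochondrial genes removed and TPM rescaled, 19 results without a test moved by more than 1 SD. Summing over near-identical copies, an alternative chosen after seeing the data, took the CV of Gapdh from 65.0% to 5.01%. No paired analysis was possible because the groups share no mouse number. Depth limits the lowest CVs: counting alone gives a median of 2.30% in genes under 5%.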

Other observations

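A few named genes, chosen after their values were seen, had levels that fell into separate ranges between mice. Amd2 stood at 0.85, 0.91, 24.3, 0.50, 30.5 and 29.0 CPM in mice 1, 2, 14, 6, 9 and 19, so mice 14, 9 and 19 were high. Retsat, retinol saturase, stood at 8.42, 8.97, 44.2, 38.8, 39.99 and 46.1 CPM, low in mice 1 and 2. Gdf1, a signalling ligand, was at 0 CPM in mouse 9 and 6.81 to 17.2 CPM in the other 5, and Hspa14 at 0 CPM in mouse 1 and 2.80 to 5.89 CPM in the other 5. Alb, the liver's serum albumin, stood at 54.0 CPM in mouse 6 and at 0.11 to 6.83 CPM in the other 5.

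The transcripts Gm15662 and Gm26924 ranked among the 30 of highest mean TPM. In CPM, which is not scaled to length, Gm26924 averaged 4141 and Gm15662 only 48.1, so the rank of Gm15662 depends on that scaling. Values of both stand here beside those of Lars2, the mitochondrial leucyl-tRNA synthetase. Gm26924 stood at 3237, 5357, 2226, 3167, 6385 and 5465 TPM in mice 1, 2, 14, 6, 9 and 19, Gm15662 at 3675, 6387, 3127, 3467, 8154 and 7736 TPM, and Lars2 at 200.3, 337, 176, 245, 528 and 533 TPM. All 3 had their 2 highest values in mice 9 and 19 and their lowest in mouse 14, and the source of this shared order was not tested. Ptgds, prostaglandin D synthase of the meninges, stood at 126, 187, 1101, 192, 306 and 784 TPM, highest in mice 14 and 19.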
